A study of Mus musculus with 50 samples.

Results

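The comparison concerned the livers of pregnant CD-1 mice given 10 mg/kg/day of GenX against the livers of vehicle controls. It used 10 of the 50 arrays of the study, 5 GenX10 livers and 5 control livers, and 30783 genes, each read from its brightest probe. CD-1 is an outbred stock, and GenX is the trade name of HFPO-DA, a short fluorinated ether acid used in place of PFOA. All dams of all groups were pregnant, were dosed daily by oral gavage from embryonic day 1.5 to day 17.5, and were killed on gestational day 17.5. Dams given 2 mg/kg/day of GenX (GenX2) or 5 mg/kg/day of PFOA (PFOA5) are used below only to show where the 10 mg/kg/day livers differed from them, with 5 arrays each. RNA came from a piece of the left lateral lobe, so the arrays read a mixture of liver cells from 1 lobe. The labels give no identifier of the dam beyond a replicate number, so p-values measure the spread between these samples. In such bulk RNA, fewer cells of a type and less RNA per cell cannot be told apart.

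PPARα is a nuclear receptor of hepatocytes that binds fatty acids and many fluorinated acids, pairs with RXR and switches on genes for the uptake, activation and oxidation of fatty acids. Fatty acids are shortened from the carboxyl end in mitochondria and peroxisomes, while Cyp4a enzymes of the endoplasmic reticulum start their breakdown from the other, omega end. Hepatocytes also make most plasma proteins, bile acids and the pumps and carriers that move drugs and bile acids in and out of the cell, and in mice many of these genes depend on sex and growth hormone.

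Levels are given as the deposited log2 signals, in which a difference of 1 is a doubling, and differences are GenX10 minus control. A gene was called when its adjusted p in limma was under 0.05. The hepatocyte markers bore out the label of the tissue: albumin was at 13.46, 13.32, 13.46, 13.45 and 13.45 in GenX10 livers, against 13.41, 13.45, 13.42, 13.45 and 13.53 in control livers. Of 14 hepatocyte markers only Ttr was called, 0.25 ± 0.06 (SE) higher. Background, the 95th percentile of an array's negative controls, lay between 7.38 and 7.68 over the 25 maternal arrays. A gene at or below background on every array of a group is called dim there, and a fold against that group is given as a lower bound, the mean of the brighter group over the mean background of the dim group's arrays, on the log2 scale. Where that bound does not exceed 1, the fitted log2 difference is given instead.

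Several arrays stood apart from their group. GenX10 arrays 1, 3 and 5 had 7234, 7418 and 7155 genes above background, against 6419 and 6255 on GenX10 arrays 2 and 4, and 5791 to 6146 on the control arrays. Their background was also the lowest, at 7.43, 7.38 and 7.45. It was 7.55 and 7.585 on GenX10 arrays 2 and 4 and 7.57 to 7.65 on the control arrays. The counts therefore do not by themselves show more expressed genes. Control arrays 1 and 5 carried transcripts of the placenta: Tpbpa, a trophoblast protein, was at 8.64 and 8.23 there and at 5.42 to 5.79 on the other 3 control arrays, while the GenX10 arrays lay between 5.47 and 5.78. Counts of genes are therefore also given, as a choice made after seeing the data, without GenX10 arrays 1, 3 and 5, which leaves 2 GenX10 arrays that are assumed to vary like the other groups, and without control arrays 1 and 5. The part of these differences in the results was not tested.

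Of the 30783 genes, 2322 (7.54%) were called higher and 1913 (6.21%) lower in GenX10 livers, 13.8% in all. All 5 GenX10 arrays lay above all 5 control arrays for 1880 genes (6.11%) and below them for 2016 (6.55%). The median difference over all genes was -0.05. Of the called genes, 1895 were dim in both groups, and these were mostly lower (1389, against 506 higher). After each array was centred on its median the split was 3060 higher and 732 lower. A change of at least 1 log2 unit was found for 197 of the called genes that were higher and 66 that were lower. Without GenX10 arrays 1, 3 and 5 there were 874 calls, 641 higher and 233 lower, and without control arrays 1 and 5 there were 2659. Among the 5058 genes above background on all 10 arrays, 21.5% were higher and 6.5% lower, with a median of 0.09. Both sets of shares are the background for the counts of the gene groups below. Of 8 constitutive genes 3 were called higher.

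**Figure D1:**
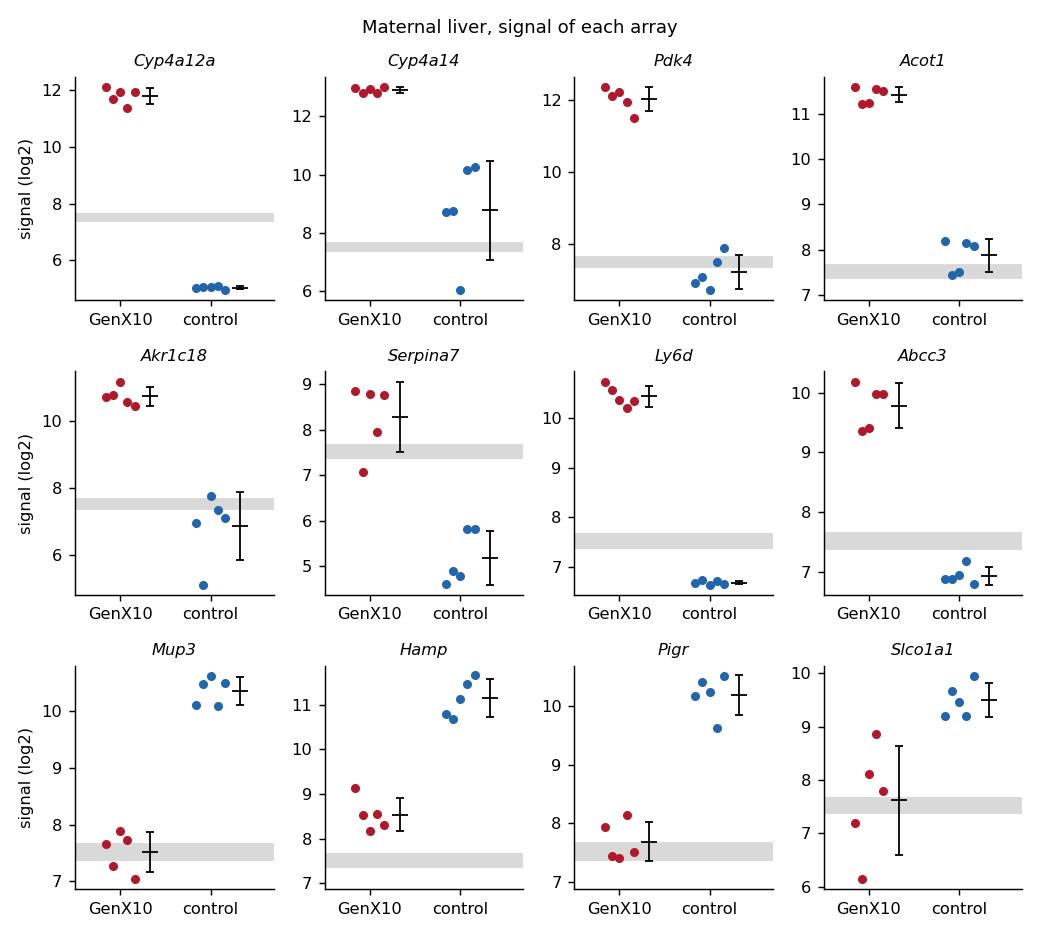
Log2 signal of 12 genes on each array, with the 5 GenX10 livers at left and the 5 control livers at right of each panel. Points are arrays, bars the mean ± SD, and the grey band the range of background over the 10 arrays. No panel has overlapping groups; the GenX10 points lie above the control points from Cyp4a12a to Abcc3 and below them from Mup3 to Slco1a1.

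Omega oxidation genes included Cyp4a12a, whose fitted rise was large but starts from dim control livers. Of 12 measured members 8 were called higher and 1 lower, with a median difference of 1.48 (7 higher and 1 lower without GenX10 arrays 1, 3 and 5). Cyp4a12a, which hydroxylates the omega end of fatty acids and in mice is normally a gene of male liver, was at 12.10, 11.70, 11.92, 11.35 and 11.93 in GenX10 livers, against 5.03, 5.08, 5.07, 5.09 and 4.95 in control livers. The control livers were all dim for it, so that the level was at least 18.2-fold higher in GenX10 livers (log2 difference 6.76 ± 0.77, SE, adjusted p = 1.1e-06). Cyp4a12b, a near copy whose signal cannot be told apart with certainty, gave at least 16.4-fold.

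Cyp4a14, another omega hydroxylase, was above background in all but control array 3. Its GenX10 levels were nearly equal, 12.96, 12.79, 12.94, 12.81 and 12.98, against 8.70, 8.76, 6.03, 10.14 and 10.25 in control livers, a rise of 4.12 ± 0.63. The control dams thus differed widely from each other while the GenX10 dams lay close together. Cyp4a32 and Cyp4a31, neighbours in the same cluster, rose by 2.53 ± 0.25 and 2.04 ± 0.24. These 5 genes lie in one stretch of mouse chromosome 4 (GRCm38.p6), with Cyp4a12a from 115299046 to 115332815 and Cyp4a32 from 115600927 to 115622507.

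The Cyp4f members, which act on long-chain fatty acids and leukotrienes, were not all higher. Cyp4f15 (1.06 ± 0.15) and Cyp4f17 (0.73 ± 0.14) rose. Cyp4f14 fell, with 7.89, 6.75, 7.30, 7.39 and 7.69 in GenX10 livers, against 9.65, 9.91, 9.64, 9.48 and 9.72 in control livers, a difference of -2.28 ± 0.29 (adjusted p = 5.2e-06). Every GenX10 array was below every control array. Aldh3a2, the microsomal dehydrogenase that finishes the omega pathway by oxidising fatty aldehydes, rose by 1.90 ± 0.17.

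**Figure D2:**
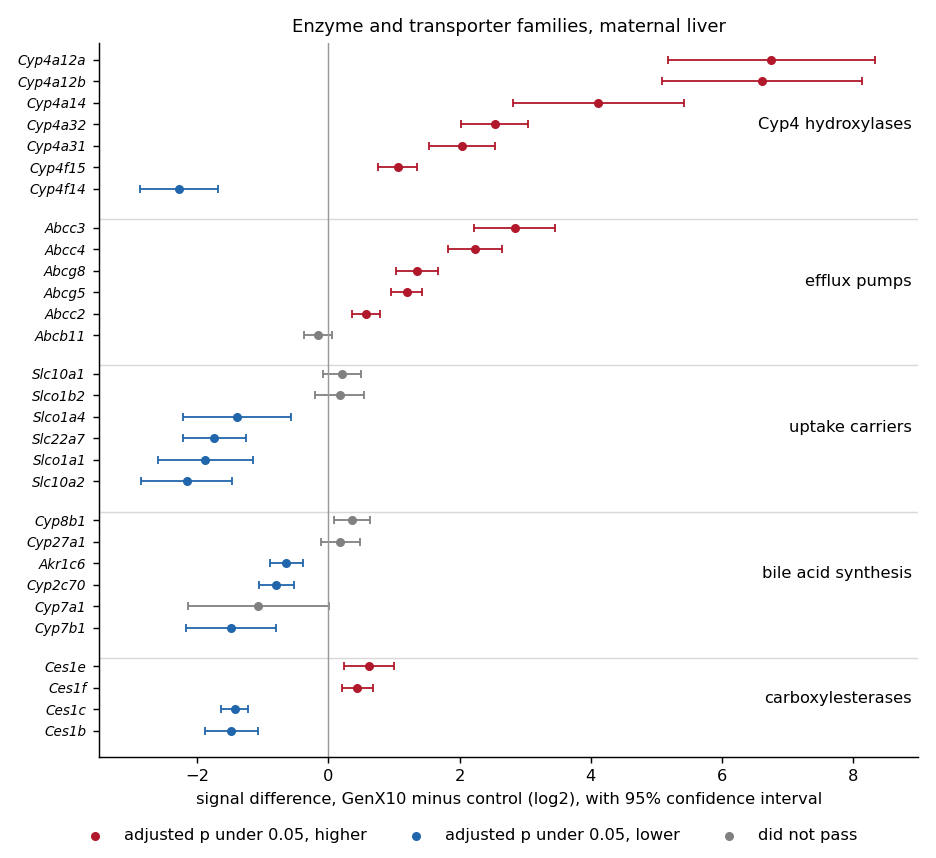
Log2 difference (GenX10 minus control) with its 95% interval for selected members of 5 gene families, red where called higher, blue where called lower and grey where the test was not passed. The Cyp4a members and the efflux pumps other than Abcb11 lie right of 0, several uptake carriers and bile acid enzymes lie left of it, and Cyp4f14 lies opposite to the Cyp4a genes.

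Peroxisomal fatty acid oxidation genes were higher in 16 of 20 measured members and lower in none, with a median of 0.89 (13 without GenX10 arrays 1, 3 and 5). Ehhadh, the bifunctional enzyme of the middle steps, was at 13.07, 12.79, 12.96, 12.95 and 12.95 in GenX10 livers, against 10.40, 10.59, 10.36, 10.55 and 10.47 in control livers, a rise of 2.47 ± 0.20. Of the paired thiolases that close the cycle, Acaa1b rose by 2.39 ± 0.23 and Acaa1a by 1.39 ± 0.13. The members that did not pass were Acox3, Pecr, Phyh and Nudt19, with differences between 0.03 and 0.25. Phyh starts the alpha-oxidation of branched phytanic acid, and its level was 11.20 ± 0.11 in GenX10 and 11.17 ± 0.03 in control livers (SD, n = 5 each).

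Genes that build peroxisomes were higher in 12 of 19 (median 0.36, 8 without GenX10 arrays 1, 3 and 5). Pex11a, which elongates and divides peroxisomes, was at 10.24, 9.62, 9.54, 9.65 and 9.69 in GenX10 livers, against 7.28, 7.05, 6.90, 7.25 and 7.09 in control livers, all dim, and was at least 4.39-fold higher in GenX10 livers. The import receptors Pex19 (1.06 ± 0.10) and Pex5 (0.35 ± 0.06) rose by less. Catalase, which clears the hydrogen peroxide that peroxisomal oxidation makes, rose by 0.39 ± 0.10, or 1.31-fold, against 5.54-fold for Ehhadh.

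The carnitine shuttle, which brings long-chain fatty acids into mitochondria, was higher in 8 of 10 members (median 1.17, and 8 without GenX10 arrays 1, 3 and 5). Slc22a5, the plasma membrane carnitine carrier, was at 9.60, 8.74, 8.88, 9.04 and 8.77 in GenX10 livers, against 6.83 to 7.01 in control livers, which were all dim, and was at least 2.63-fold higher. Cpt1a, the liver form of the rate-setting transferase, rose by 0.97 ± 0.12. Cpt1b, the form of muscle, was dim in every control liver and was at least 1.76-fold higher in GenX10 livers, with array 1 highest at 9.38 and the other 4 between 7.82 and 8.65. Bbox1 and Tmlhe, which make carnitine, did not pass (0.12 ± 0.16 and 0.44 ± 0.19).

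In mitochondrial beta-oxidation 16 of 17 members were higher (median 0.85, 13 without GenX10 arrays 1, 3 and 5). Eci1, an isomerase for unsaturated fatty acids, rose most (1.72 ± 0.15), and Hadhb and Hadha, the subunits of the trifunctional protein, rose by 1.44 ± 0.14 and 1.12 ± 0.09. Acadm, the medium-chain dehydrogenase, was at 11.09, 10.60, 10.84, 10.97 and 10.84 in GenX10 livers, against 9.69, 9.68, 9.64, 9.83 and 9.83 in control livers. The exception was Acsm1, a medium-chain acyl-CoA synthetase, at -0.09 ± 0.11. Of the ketone body genes 4 of 7 were higher (2 without GenX10 arrays 1, 3 and 5), among them Acat1 (0.73 ± 0.09) and the monocarboxylate carrier Slc16a1 (0.89 ± 0.12). Bdh2, dim in both groups, was lower, a call lost without control array 2 or 3 or GenX10 array 1.

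Oxidative phosphorylation subunits rose by less per gene. Of 29 measured, 23 were higher and none lower, with a median of 0.38. Sdhd, a membrane anchor of complex II, rose by 0.60 ± 0.09, and the ATP synthase subunit Atp5a1 by 0.43 ± 0.07. The count was 15 without GenX10 array 1 and 2 without GenX10 arrays 1, 3 and 5, where the median was 0.28. Ucp3, an uncoupling protein of the inner membrane mainly known from muscle, was at 7.79, 7.72, 7.76, 7.54 and 7.22 in GenX10 livers, against 6.07 to 6.19 in control livers, and rose by 1.47 ± 0.15.

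**Figure D3:**
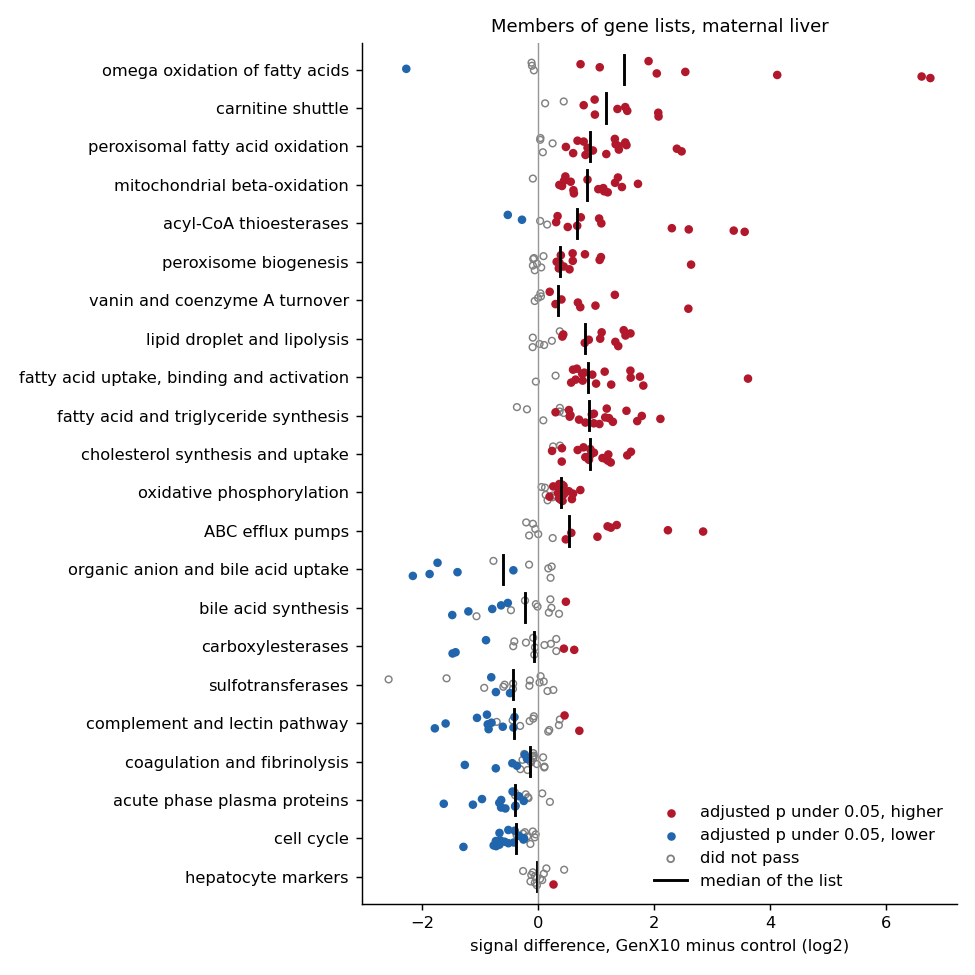
Log2 difference (GenX10 minus control) of each measured member of 22 gene groups, with a line at the median of each group; filled points were called and open points were not. The fatty acid, droplet and sterol groups lie mostly right of 0, while the complement, acute phase and cell cycle groups lie mostly left of it.

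Acyl-CoA thioesterases, which split acyl-CoA into fatty acid and coenzyme A, were higher in 11 of 15 members and lower in 2 (7 and 1 without GenX10 arrays 1, 3 and 5). The lower count was 1 or 0 in each of the 10 fits that left out 1 array, being 0 without control array 5. Acot1 was at 11.60, 11.23, 11.25, 11.55 and 11.51 in GenX10 livers, against 8.18, 7.43, 7.51, 8.15 and 8.08 in control livers, a rise of 3.56 ± 0.31. Its neighbours on chromosome 12, Acot2 (3.37 ± 0.27), Acot3 (at least 3.44-fold) and Acot4 (at least 3.52-fold), also rose, and their similar sequences leave the split between them uncertain. The cytosolic Acot12 rose by 1.05 ± 0.12. Baat, which joins bile acids to taurine, fell by 0.53 and lost its call in 4 of the fits that left out 1 array. Vnn1, a pantetheinase that returns a precursor of coenzyme A, was at 11.38, 10.9996, 11.14, 10.90 and 11.01 in GenX10 livers, against 8.34, 8.58, 7.88, 9.01 and 8.69 in control livers. It led a coenzyme A group in which 8 of 12 genes were higher (5 without control arrays 1 and 5, 2 without GenX10 arrays 1, 3 and 5, and 5 to 7 with 1 array left out, being 5 without control array 1 or 4 or GenX10 array 1 or 3), with Pank1, the first enzyme of coenzyme A synthesis, at 0.98 ± 0.14 and the coenzyme A hydrolase Nudt7 at 1.32 ± 0.26.

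Pdk4, the kinase that shuts off pyruvate dehydrogenase and so spares glucose, rose. It was at 12.35, 12.10, 12.22, 11.94 and 11.49 in GenX10 livers, against 6.93, 7.08, 6.73, 7.51 and 7.90 in control livers (fitted log2 difference 4.79 ± 0.33, adjusted p = 1.3e-09). Only control array 5 was above background, so no fold is given. Pdk2 rose by 0.51 ± 0.13 and Pdk1 was at 0.27 ± 0.12 (adjusted p = 0.12). The complex itself and its phosphatase also rose, Pdha1 by 0.56 ± 0.09 and Pdp2 by 0.53 ± 0.11, in a group with 6 of 11 higher (3 without GenX10 arrays 1, 3 and 5). Of 13 genes of glucose output and glycogen 1 rose, pyruvate carboxylase Pcx (0.46 ± 0.09), and 3 fell, among them the glycolytic Pklr by 0.82 (2 rose without GenX10 array 2). G6pc (0.44 ± 0.24), Pck1 (0.05 ± 0.25) and Fbp1 (0.01 ± 0.10) did not pass.

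Genes for taking up, binding and activating fatty acids were higher in 16 of 18 members (median 0.86, 12 without GenX10 arrays 1, 3 and 5). Fabp3, the binding protein of heart, was at 10.96, 10.95, 10.98, 10.32 and 10.92 in GenX10 livers, against 7.30, 7.37, 7.32, 7.09 and 6.97 in control livers, which were dim, and was at least 9.27-fold higher. Fabp1, the abundant binding protein of hepatocytes, was at 12.54 to 12.73 in GenX10 livers, against 11.80 to 12.04 in control livers, a rise of 0.76 ± 0.08. The uptake receptor Cd36 rose by 1.81 ± 0.20. Fabp4, best known from fat cells, had 9.27 on GenX10 array 1 and 7.24 to 7.87 on the other 4, against 6.08 to 6.46 in dim control livers, and was at least 1.22-fold higher. Of the 6 fat cell markers measured 1 was higher, Fabp4, and 1 lower, Car3, which hepatocytes also express, at -1.72 ± 0.30. Their summed level was 9.51 to 10.49 in GenX10 livers, against 10.89 to 11.30 in control livers, without overlap. The fat cell genes Adipoq, Lep, Plin1 and Retn were dim in both groups, with differences between -0.10 and 0.07.

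Promoters of the named genes were searched for the direct repeat that PPARα and its relatives bind, given here because many of these genes rose together. The exact form, AGGTCA and AGGTCA with 1 base of any kind between, occurred in 13 of 32851 RefSeq mouse promoters of 300 bases (0.04%), on either strand, and in none of the named genes. The looser form, AGGNCA and AGGNCA with the same gap, includes the exact form and occurred in 125 promoters (0.38%). Counted by gene, it was in 122 of 27025 genes with a promoter (0.45%). It was in 1 of 105 named genes that rose, Fabp1, and in 1 of 64 that fell, the clotting factor gene F7. By list, 1 of 19 fatty acid and triglyceride synthesis, 1 of 8 male-biased and 1 of 5 placenta and uterus genes also held it. A gene can be in more than 1 list. Capitals mark the match in Fabp1 and F7, which lies on the minus strand in both. It is 67 bases before the start of Fabp1 and 34 bases before that of F7. Both sequences are from GRCm38.p6, plus strand, at chr6:71199629-71199928 and chr8:13025784-13026083. A match of letters does not show binding, and other forms of the site were not searched.
Fabp1: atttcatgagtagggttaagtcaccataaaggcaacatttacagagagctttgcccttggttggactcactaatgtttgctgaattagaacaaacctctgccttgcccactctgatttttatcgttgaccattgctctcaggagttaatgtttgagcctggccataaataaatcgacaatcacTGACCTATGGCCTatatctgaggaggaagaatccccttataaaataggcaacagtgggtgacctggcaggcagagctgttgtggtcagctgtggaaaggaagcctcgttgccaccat
F7: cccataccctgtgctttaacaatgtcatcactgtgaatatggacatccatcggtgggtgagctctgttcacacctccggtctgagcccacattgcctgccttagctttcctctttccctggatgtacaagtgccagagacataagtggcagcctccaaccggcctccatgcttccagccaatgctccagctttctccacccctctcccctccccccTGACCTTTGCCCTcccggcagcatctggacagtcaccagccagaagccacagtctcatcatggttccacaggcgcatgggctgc

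Lipid droplet genes were higher in 11 of 17 members and lower in none (median 0.80, 9 without GenX10 arrays 1, 3 and 5). Plin2, the coat protein of liver droplets, was at 11.71, 11.48, 11.62, 11.58 and 11.36 in GenX10 livers, against 10.33, 9.95, 10.10, 10.33 and 10.16 in control livers. The lipases Pnpla2 and Mgll rose by 1.07 ± 0.12 and 1.50 ± 0.14, and G0s2, an inhibitor of Pnpla2, by 1.59 ± 0.30. Hilpda, a droplet protein that also inhibits that lipase, was at least 1.49-fold higher, and Fitm2, which helps droplets bud, rose by 1.47 ± 0.17. Cidec had one array, 7.60 on GenX10 array 1, well above the control range of 5.89 to 6.05, while GenX10 array 3 was at 6.19, and its call was lost in 7 of the 10 fits that left out 1 array of these groups.

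Synthesis genes rose beside the oxidation genes. Of 24 fatty acid and triglyceride synthesis genes 18 were higher and none lower, with a median of 0.87 (12 without GenX10 arrays 1, 3 and 5). Scd1, which desaturates stearate, was at 12.63, 12.43, 12.46, 12.44 and 12.66 in GenX10 livers, against 10.78, 11.33, 10.36, 10.79 and 10.43 in control livers. Me1, which supplies NADPH, rose by 1.70 ± 0.23, and Fasn, fatty acid synthase, by 1.29 ± 0.26. Elovl3, an elongase that in mice is also male-biased, was above background in 3 of 5 GenX10 livers and in no control liver. Among genes that did not pass were Dgat2, the main enzyme of the last step of triglyceride synthesis (-0.20 ± 0.09), and Thrsp (-0.37 ± 0.29), while the related Dgat1 rose by 0.53 ± 0.09.

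Cholesterol synthesis genes were higher in 18 of 20 members and lower in none (median 0.89, 14 without GenX10 arrays 1, 3 and 5). Hsd17b7, a ketoreductase late in the pathway, was at 9.69, 9.11, 9.51, 9.33 and 9.59 in GenX10 livers, against 7.72, 8.12, 7.76, 7.79 and 7.86 in control livers. Lss, which closes the sterol rings, rose by 1.53 ± 0.17, Hmgcs1 by 1.25 ± 0.14 and Sqle by 0.88 ± 0.13. Srebf2, the transcription factor of the pathway, rose by 0.41 ± 0.08. The half-transporters Abcg5 and Abcg8, which together export sterols into bile, rose as a pair by 1.19 ± 0.12 and 1.35 ± 0.15.

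Of 19 apolipoprotein and lipoprotein remodelling genes 4 were higher and 2 lower (2 and 0 without GenX10 arrays 1, 3 and 5). Pltp, which transfers phospholipids between lipoproteins, was at 11.23, 11.29, 11.04, 10.99 and 11.30 in GenX10 livers, against 8.94, 8.79, 8.50, 8.82 and 8.48 in control livers (2.46 ± 0.20). Angptl4, an inhibitor of lipoprotein lipase, rose by 1.11 ± 0.14, and the related Angptl8 fell by 1.36. The apolipoproteins Apoa1, Apoa2, Apob and Apoc3 had differences between -0.03 and 0.07 and did not pass. Apoa4 fell by 0.90, although GenX10 array 2, at 10.94, lay within the control range of 10.91 to 11.31.

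Of 14 efflux transporters 8 were higher and none lower (median 0.52, 6 without GenX10 arrays 1, 3 and 5). Abcc3, which returns conjugates from hepatocytes to blood, was at 10.19, 9.36, 9.40, 9.98 and 9.98 in GenX10 livers, against 6.88, 6.89, 6.95, 7.19 and 6.79 in dim control livers, at least 4.49-fold higher. Abcc4, a second pump of that membrane, was at least 2.60-fold higher. On the bile side, Abcg2 (at least 1.67-fold), Abcb4 (1.02 ± 0.15) and Abcc2 (0.57 ± 0.10) rose, and the bile salt pump Abcb11 did not pass (-0.16 ± 0.10).

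Of 10 uptake carriers 5 were lower and none higher (4 lower without GenX10 arrays 1, 3 and 5). Slco1a1, an organic anion carrier of male-biased liver expression in mice, was at 7.19, 6.15, 8.11, 8.86 and 7.79 in GenX10 livers, against 9.21, 9.66, 9.46, 9.19 and 9.95 in control livers. Its fall, -1.87 ± 0.35, came with a wider spread among GenX10 livers. Slc22a7, a carrier of organic anions, was dim in all GenX10 livers and above background in all control livers, at least 1.58-fold lower. Slc10a1, the main bile acid carrier (0.21 ± 0.14), and Slco1b2 (0.17 ± 0.18) did not pass. The median of the group was -0.60, and it was 0.0058 with 2 genes lower when dim genes were left out.

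Bile acid synthesis genes were lower in 5 of 15 members and higher in 1 (4 and 0 without GenX10 arrays 1, 3 and 5). Single arrays moved these counts: 3 were lower and 3 higher without GenX10 array 2, 3 were lower without control array 3 or GenX10 array 3, and none was higher without control array 2, 3 or 5 or GenX10 array 1 or 5. Cyp7b1, of the alternative pathway, fell to 6.64, 6.23, 7.17, 6.91 and 5.96 in GenX10 livers, all dim, against 8.04, 8.17, 8.30, 7.38 and 8.44 in control livers, at least 1.51-fold lower. Cyp2c70, which makes the muricholic acids of mice, fell by 0.79. Cyp7a1, the rate-limiting enzyme of the classic pathway, was at 8.66, 7.82, 8.36, 9.89 and 9.58 in GenX10 livers, against 9.54 to 10.33 in control livers, and did not pass (-1.07 ± 0.52, adjusted p = 0.17). Its groups overlapped, since GenX10 arrays 4 and 5 lay within the control range.

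Targets of the drug sensors CAR and PXR showed no common direction, with 2 of 20 higher and 4 lower. Both receptor genes rose, Nr1i2 by 0.67 ± 0.11 and Nr1i3 by 0.58 ± 0.11, yet Cyp2b10, the usual CAR target, was at 9.65, 8.27, 8.46, 9.33 and 9.32 in GenX10 livers, against 8.33, 8.40, 9.66, 9.69 and 7.82 in control livers (0.23 ± 0.40, adjusted p = 0.73). Cyp3a11, the usual PXR target, was at 0.09 ± 0.13. The 4 that fell were Cyp2c54, Cyp2c37, Cyp2c50 and Cyp3a44, by 0.50 to 1.01. The first 3 are close in sequence and may share signal, and the lower count was 0 without control arrays 1 and 5 and also without GenX10 arrays 1, 3 and 5, 2 without control array 3 or 5, and 1 without GenX10 array 2 or 5.

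Cyp1a1 and Cyp1a2, targets of the dioxin receptor, did not rise: Cyp1a1 was dim in both groups (-0.05 ± 0.06) and Cyp1a2 fell by 0.56. Of 21 NRF2 targets 7 were higher (1 without GenX10 arrays 1, 3 and 5). Ephx1, microsomal epoxide hydrolase, was at 11.76, 11.55, 11.54, 11.69 and 11.83 in GenX10 livers, against 10.62, 10.46, 10.41, 10.89 and 10.20 in control livers. The classic targets Nqo1 (0.28 ± 0.19) and Gclc (0.27 ± 0.13) did not pass. Of 15 carboxylesterases, Ces1c (-1.43 ± 0.10), Ces1b (-1.48 ± 0.19) and Ces3b (-0.90 ± 0.27) were lower and Ces1f (0.44 ± 0.11) and Ces1e (0.62 ± 0.18) higher. The counts were 2 lower and 0 higher without GenX10 arrays 1, 3 and 5, and 2 lower and 1 higher without control arrays 1 and 5. Ces1e lost its call in 3 of the fits that left out 1 array, and the copies within this cluster may share signal.

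Of 17 sulfotransferases 3 were lower and none higher (1 lower without GenX10 arrays 1, 3 and 5, and 5 lower without GenX10 array 1). Some genes spread widely among the GenX10 dams. Sult3a1, a female-biased sulfotransferase of mouse liver, was at 11.24, 5.62, 7.77, 9.82 and 4.71 in GenX10 livers, against 10.14, 11.61, 9.95, 9.65 and 10.70 in control livers, and was not called (-2.58 ± 0.94, adjusted p = 0.067). GenX10 arrays 1 and 4 lay within the control range and arrays 2 and 5 were below background. Sult2a1, which sulfates bile acids and steroids, was lowest on other arrays, at 6.45 and 7.61 on GenX10 arrays 3 and 4, against 9.37 to 10.12 on the remaining GenX10 arrays and 9.19 to 10.21 in control livers. Over 5058 genes above background on all 10 arrays, the median SD was 0.139 in GenX10 and 0.123 in control livers.

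Genes with a sex difference in mouse liver did not move as a class. Among 14 male-biased genes 4 were higher and 3 lower, with Cyp4a12a, Cyp4a12b, Elovl3 and Nudt7 higher and Slco1a1, Cyp7b1 and Hsd3b5 lower. Hsd3b5, a steroid dehydrogenase dim in both groups, was at 4.90 to 5.35 in GenX10 livers, and control array 5, at 5.28, lay among them while the other 4 control arrays lay at 6.66 to 7.03. Among 16 female-biased genes 2 were higher, Abcc4 and Rtn4 (0.90 ± 0.16), and Cyp3a44 was lower, a call lost in 5 of the 10 fits that left out 1 array. Of 15 genes of the growth hormone and IGF axis 1 was higher, the binding protein Igfbp2 (0.89 ± 0.10), and 1 lower, Cish, a call lost in 7 of the 10 fits that left out 1 array. Igf1 (0.18 ± 0.10), Ghr (-0.39 ± 0.21) and Socs2 (-0.21 ± 0.09) did not pass.

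The major urinary proteins, small pheromone carriers secreted by the liver, were lower in 3 of 5 measured genes (2 without GenX10 arrays 1, 3 and 5). The list held 22 genes, so most of the family was not seen. Mup3 was at 7.65, 7.27, 7.88, 7.74 and 7.05 in GenX10 livers, against 10.10, 10.47, 10.62, 10.09 and 10.49 in control livers (-2.84 ± 0.26, adjusted p = 5.1e-08). Mup21, dim in every GenX10 liver, was at least 4.34-fold lower, and Mup5 also fell, a call lost without control array 5 or GenX10 array 5. Mup20 was lower on all GenX10 arrays than on any control array but did not pass (-0.66 ± 0.32). These genes are near copies of each other, so a signal may not belong to 1 gene alone.

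In the complement and lectin group 10 of 22 genes fell and 2 rose (8 and 0 without GenX10 arrays 1, 3 and 5, and 10 and 0 without control arrays 1 and 5), with a median of -0.42. C8b, a chain of the membrane attack complex, was at 7.96, 7.62, 8.94, 8.25 and 8.18 in GenX10 livers, against 9.44, 9.95, 10.04, 9.73 and 9.78 in control livers, and C8a and C8g fell with it by 0.87 and 0.81. Mbl2, a lectin that starts the cascade, fell by 1.06. C1s1 fell by 1.78 and its near copy C1s2 by 1.76. The 2 that rose, C1qb (0.71 ± 0.23) and Fcna (0.45 ± 0.12), are made mainly by macrophages. The count of higher genes was 0 without GenX10 array 1 and 1 without control array 1, 2, 3 or 5 or GenX10 array 2 or 5.

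Acute phase genes, whose products the liver secretes in inflammation, were lower in 12 of 19 members and higher in none (median -0.40). Orm1 was at 10.63, 10.42, 9.96, 10.59 and 10.32 in GenX10 livers, against 11.59, 11.71, 11.55, 11.51 and 11.21 in control livers. Apcs, serum amyloid P, fell by 0.97 and Crp, C-reactive protein, by 0.64. Haptoglobin, Hp, did not pass (0.20 ± 0.10). The count of lower genes was 3 without GenX10 arrays 1, 3 and 5, 8 without control arrays 1 and 5, 6 without control array 2 and 7 without control array 3. It was 6 after each array was centred on its median.

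Among 21 coagulation genes 6 fell and none rose. F11, a protease of the intrinsic pathway, was at 8.95, 8.74, 8.94, 9.14 and 9.05 in GenX10 livers, against 10.05, 10.42, 10.31, 10.11 and 10.27 in control livers, a difference of -1.27 ± 0.21. F7, whose promoter is printed above, fell by 0.73 and lost its call without GenX10 array 1, the lowest at 9.91. Prothrombin (F2, -0.19 ± 0.07) and the fibrinogen chains (-0.14 to -0.12) did not pass. The count was 1 without GenX10 array 1, 2 without GenX10 array 5, 3 without GenX10 array 4, 2 without control array 2, 3 without control array 3 and 2 without control arrays 1 and 5. After each array was centred on its median it was 2.

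Hamp, hepcidin, the hormone that blocks iron release, was at 9.14, 8.53, 8.17, 8.55 and 8.30 in GenX10 livers, against 10.79, 10.68, 11.13, 11.47 and 11.66 in control livers (-2.60 ± 0.67, adjusted p = 0.011). Its copy Hamp2 fell by 2.18, a call lost without control array 4 or GenX10 array 3 or 5. Of genes linked to the signalling that sets hepcidin in liver, Bmp6 (-0.19 ± 0.08), Id1 (-0.15 ± 0.14) and Smad7 (-0.12 ± 0.06) did not pass, and Hjv, the co-receptor, rose by 0.52 ± 0.14. The ferritin chains Ftl1 and Fth1 rose by 0.53 ± 0.07 and 0.18 ± 0.05. Tfrc, the transferrin receptor, was at 8.37, 8.62, 9.57, 8.98 and 9.62 in GenX10 livers, against 7.80, 8.66, 7.69, 7.65 and 7.23 in control livers, and did not pass (adjusted p = 0.13). Alas1, the first enzyme of haem synthesis, rose by 1.32 ± 0.16.

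Of markers that order hepatocytes between the veins, 5 of 14 pericentral genes fell and none rose (1 fell without GenX10 arrays 1, 3 and 5). Slc1a2, a glutamate carrier, was dim in all GenX10 livers at 6.12, 6.20, 5.70, 6.04 and 5.56, against 8.69, 8.68, 8.40, 8.52 and 8.66 in control livers, at least 2.16-fold lower. Gulo, the last enzyme of vitamin C synthesis, fell by 0.70, while Cyp2e1 (-0.10 ± 0.12), Oat (0.06 ± 0.21) and Axin2 (0.02 ± 0.06) did not pass. Of 10 periportal genes Pigr and Hal fell, and Sox9 and Hsd17b13 rose, each with a call lost in 7 of the 10 fits that left out 1 array. Pigr, which carries immunoglobulin A into bile, was at 7.93, 7.43, 7.41, 8.13 and 7.51 in GenX10 livers, against 10.17, 10.41, 10.23, 9.63 and 10.51 in control livers, and Hal, histidine ammonia-lyase, fell by 0.93. The urea cycle enzymes Cps1 (0.18 ± 0.08) and Arg1 (0.24 ± 0.09) did not pass.

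Several large rises belonged to none of the lists above. Akr1c18, which inactivates progesterone, was at 10.70, 10.75, 11.16, 10.55 and 10.44 in GenX10 livers, against 6.96, 5.13, 7.76, 7.33 and 7.12 in control livers (fitted log2 difference 3.86 ± 0.76, adjusted p = 0.0012). Only control array 3 was above background for it, so no fold is given. Ly6d, a surface protein anchored by a lipid, was at 10.21 to 10.75 in GenX10 livers, against 6.64 to 6.73 in control livers, all dim, at least 7.15-fold higher. Serpina7, which carries thyroid hormone in plasma, was above background in 4 of 5 GenX10 livers and in no control liver, at least 1.59-fold higher, with 7.08 on GenX10 array 2 and 7.95 to 8.85 on the others. Retsat, a retinol saturase, rose by 3.22 ± 0.32, Pctp, a phosphatidylcholine transfer protein, by 3.13 ± 0.32, and Ctse, an aspartic protease, by 3.01 ± 0.64. For Pctp only control array 4, at 8.01, was above background, while the other control arrays lay at 6.87 to 7.05. Lepr, the leptin receptor, rose by 1.93 ± 0.29. Ly6d and Lepr belonged to other lists. Of 11 surface protein and oncofetal genes 2 were higher and 4 lower (2 and 1 without GenX10 arrays 1, 3 and 5). Of 9 genes of the Fgf21 axis 3 were higher and 1 lower (2 and 0 without those arrays). Fgf21, a hormone of the fasted liver, did not pass, with 8.39, 9.88, 8.74, 8.38 and 8.29 in GenX10 livers, against 8.64, 7.28, 8.26, 9.39 and 8.92 in control livers.

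Stress and damage genes were mostly not called. Of 20 genes of the unfolded protein and integrated stress responses none was higher and 3 were lower (1 without control arrays 1 and 5, 1 without GenX10 array 1 or 3, none without GenX10 arrays 1, 3 and 5), among them Sdf2l1, which fell by 0.59, while Atf4 (-0.09 ± 0.09) and Hspa5 (-0.23 ± 0.11) did not pass. None of 8 p53 targets and none of 15 interferon and antigen presentation genes was called. Cdkn1a was at 0.30 ± 0.24.

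Cell cycle genes were lower in 16 of 24 members (median -0.39). Of the 24, 22 were dim in both groups. Mki67 was at 6.27, 5.53, 5.42, 5.58 and 7.07 in GenX10 livers, against 6.94, 7.60, 7.79, 7.55 and 6.45 in control livers. The groups overlapped because GenX10 array 5 lay above control arrays 1 and 5, and the call was lost in 3 of the fits that left out 1 array. Aurka, a mitotic kinase, was at 6.18 to 6.45 in GenX10 livers, against 6.50 to 7.36 in control livers, without overlap. The count was 19 without control arrays 1 and 5, 7 without GenX10 arrays 1, 3 and 5 and 10 without GenX10 arrays 2 and 4. Only 1 member was called when dim genes were left out.

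**Figure D4:**
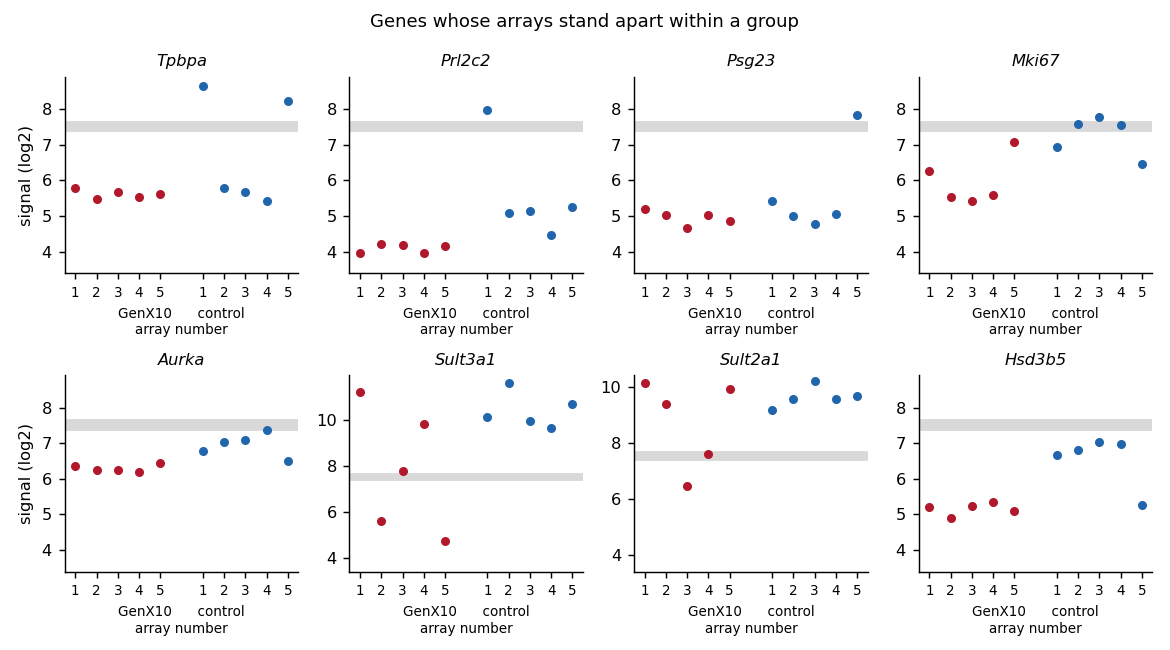
Log2 signal by array number for 8 genes whose arrays stood apart within a group, with GenX10 livers at left and control livers at right of each panel and background as a grey band. Control arrays 1 and 5 are high for Tpbpa, and GenX10 arrays 2 and 5 are low for Sult3a1.

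Markers of other cells bear on these groups. Macrophage and Kupffer cell markers were higher in 4 of 16 genes (Cd14, Cd5l, Cd68 and Ctss, median 0.44), and their summed level, the log2 of summed linear signals, ranged from 11.32 to 11.82 in GenX10 livers and from 10.73 to 11.40 in control livers. The count was 1 without control arrays 1 and 5, 1 without GenX10 arrays 1, 3 and 5, 8 without control array 4, 2 without control array 1 or 2, and 1 without control array 5, GenX10 array 1 or GenX10 array 5. Cd14, which binds endotoxin, rose by 0.98 ± 0.14, and the defining markers Clec4f (0.40 ± 0.17) and Adgre1 (0.45 ± 0.17) did not pass. The 12 granulocyte and 12 lymphocyte markers were all dim in both groups, and none was called. Placental markers summed to 8.05 to 8.20 in GenX10 livers and to 10.09, 8.43, 8.28, 8.14 and 9.76 on control arrays 1 to 5, and of these Prl2c2 (-1.48 ± 0.37) and Prl8a2 (-1.35 ± 0.40) were called lower, the second not without control array 2 or GenX10 array 1. The part of these cells in the differences above was not tested.

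Few genes differed between the doses of GenX. Of 30783 genes 74 (0.24%) differed between GenX10 and GenX2 livers, 55 (0.179%) higher and 19 (0.0617%) lower. Fabp3 was at 10.96, 10.95, 10.98, 10.32 and 10.92 in GenX10 livers, against 6.998, 8.99, 9.92, 8.75 and 8.95 in GenX2 livers, a difference of 2.10 ± 0.31 (adjusted p = 0.0014). Every GenX10 array lay above every GenX2 array. Other genes higher at the larger dose were Ly6d (1.90 ± 0.29), Cd24a, a surface glycoprotein (1.84 ± 0.22), Fbp2, the muscle form of fructose bisphosphatase (1.64 ± 0.17), Cpt1b (1.23 ± 0.21), Ucp3 (1.06 ± 0.15) and Abcc4 (1.09 ± 0.20).

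Genes lower at 10 than at 2 mg/kg/day were fewer. Mup3 differed by -2.07 ± 0.26, Mup21 by -2.03 ± 0.36, Pigr by -1.95 ± 0.34, Car3, a carbonic anhydrase of fat, muscle and liver, by -1.51 ± 0.30, Hal by -0.99 ± 0.17 and Ces1c by -0.66 ± 0.10. For Hal, GenX2 minus control was 0.06, beside -0.93 for GenX10 minus control. The Cyp4a genes, Pdk4 and Acot1 were not called between the doses. For Cyp4a14 GenX10 minus GenX2 was 0.17, with a 95% interval from -1.14 to 1.47, and for Pdk4 it was 0.90, with an interval from 0.21 to 1.59 before adjustment over all genes. In GenX2 livers, set against the same control arrays, 15 of the 20 peroxisomal oxidation genes and 11 of the 20 cholesterol synthesis genes were called higher, beside 16 and 18 in GenX10 livers. The background differs too: over all 30783 genes 750 were higher and 289 lower in GenX2 livers, beside 2322 and 1913 in GenX10 livers. The count of 74 was 36 without GenX10 array 1, 14 when only the arrays of these 2 groups were fitted, and 4 when a 1.5-fold difference was required.

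**Figure D5:**
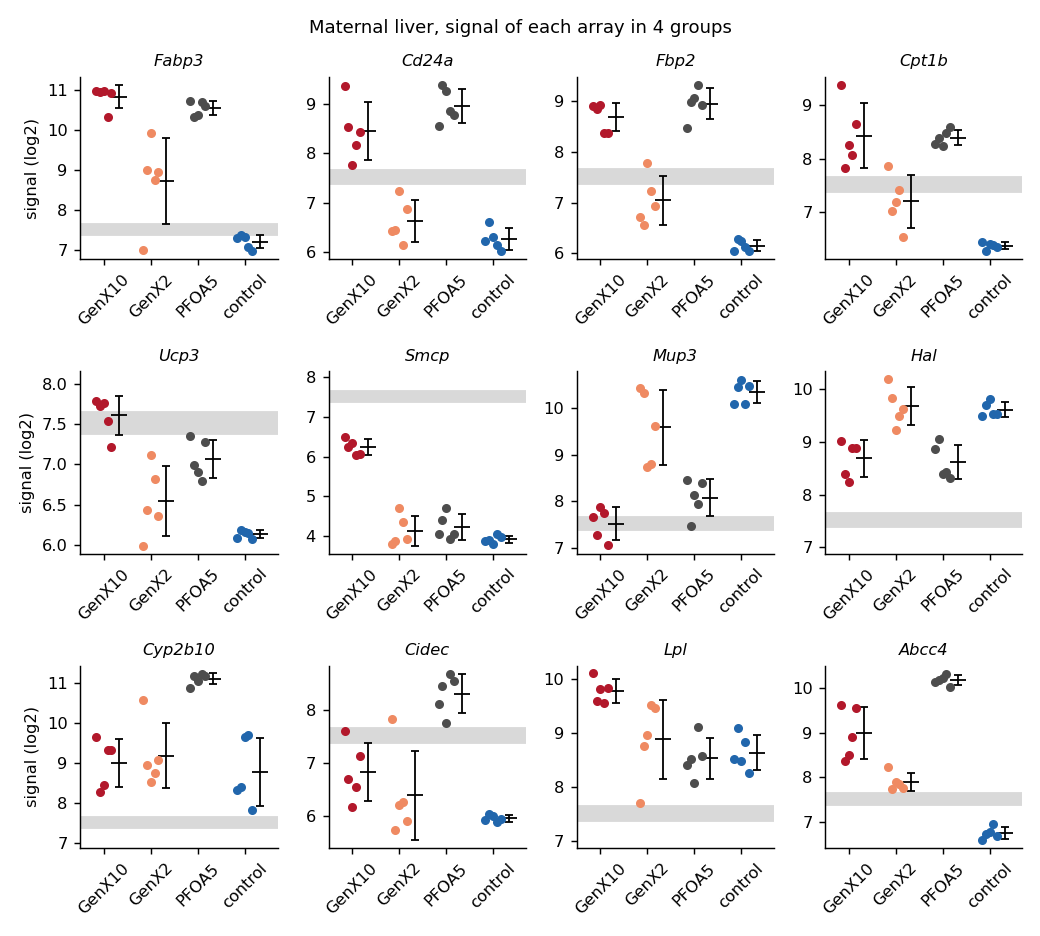
Log2 signal of 12 genes on each array of GenX10, GenX2, PFOA5 and control livers, 5 arrays each, in that order from left to right, with the mean ± SD as bars and the range of background as a grey band. Fabp3, Cd24a and Fbp2 are higher in GenX10 than in GenX2 livers, and Cyp2b10 and Cidec are lower in GenX10 than in PFOA5 livers.

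GenX at 10 mg/kg/day and PFOA at 5 mg/kg/day are given side by side without matching of dose. In these groups 163 genes (0.53%) differed, 77 (0.25%) higher and 86 (0.279%) lower in GenX10 livers. Cyp4a14, Pdk4, Acot1 and Ehhadh were not among them. Cyp4a14, Pdk4, Acot1 and Ehhadh rose by 4.12, 4.79, 3.56 and 2.47 in GenX10 livers, beside 4.21, 4.75, 3.75 and 2.53 in PFOA5 livers, both against the same control arrays. For Fabp3 the difference between GenX10 and PFOA5 livers was 0.28, with a 95% interval from -0.36 to 0.92.

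The genes that differed included targets of CAR. Cyp2b10 was at 9.65, 8.27, 8.46, 9.33 and 9.32 in GenX10 livers, against 10.89, 11.18, 11.07, 11.23 and 11.19 in PFOA5 livers, a difference of -2.10 ± 0.40 (adjusted p = 0.013). Every GenX10 array lay below every PFOA5 array. Cyp2c55, dim in GenX10 and control livers, differed by -2.23 ± 0.41 and Cyp2c54 by -1.34 ± 0.28. Cidec differed by -1.47 ± 0.28, whereas the related droplet gene Cidea was 1.11 ± 0.23 higher and lipoprotein lipase, Lpl, 1.25 ± 0.25 higher in GenX10 livers. Abcc4 differed by -1.19 ± 0.20. The vasopressin receptor Avpr1a (1.35 ± 0.15) and Gulo (1.01 ± 0.17) were higher in GenX10 than in PFOA5 livers. Set against control, Avpr1a was at -0.30 in GenX10 livers, where it did not pass, and at -1.65 in PFOA5 livers, and Gulo was at -0.70 and -1.71. Smcp, a sperm mitochondrial protein gene, was dim in all groups at 6.04 to 6.51 in GenX10 livers and 3.81 to 4.04 in control livers, and differed from GenX2 by 2.12 ± 0.15 and from PFOA5 by 2.01 ± 0.15. The count of 163 lay between 82 and 138 when 1 array was left out, and was 93 when only the arrays of these 2 groups were fitted and 1 when a 1.5-fold difference was required.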

How the data were processed

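Maternal and fetal livers of CD-1 mice were read on 50 whole-transcript arrays, of which the 25 maternal ones were used. The authors deposited log2 signals. Per the submitters' processing notes the method was RMA and the build mm10. Signals near background are compressed, so that changes of dim genes can be understated. The precision is limited by 5 arrays a group.

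Each gene was read from its brightest probe. Of 32750 annotated probes 30604 had 1 symbol, 654 several symbols of 1 gene, and 1492 named several genes and were left out. RefSeq identifiers updated 827 symbols of 23422 matched, and 33206 clusters had no name. Background was the 95th percentile of 5222 negative controls.

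The 5 maternal groups were fitted together in limma 3.58.1 (R 4.3.3), with lmFit and eBayes, two-sided, and p-values were adjusted by Benjamini-Hochberg over all 30783 genes and called under 0.05. On simulated data 84% of 100 genes changed by 0.5 and 97% of 100 changed by 1 log2 unit were recovered, and 5.24% of calls were false. The simulated noise was independent between genes, without shifts shared by the genes of an array. These rates therefore need not hold for the real arrays. Tables were made with Python 3.11.15, numpy 2.4.6 and pandas 2.3.3. The alternatives were other sets of arrays, an intensity trend, dim filters, normalizations, probe averaging, array weights, a 1.5-fold minimum, a replicate block and each array left out.

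The comparison, members and gene lists were chosen with earlier results of these data known. Named genes were a hand-written set, the 15 largest rises and 15 largest falls with every GenX10 array on 1 side of the control mean (predicted genes and large receptor families left out), up to 4 members of each list by smallest adjusted p, and the 5 largest differences each way against GenX2 and PFOA5. Other members are named to complete a list. Protein sequences were not analysed here. Equal replicate numbers did not pair the arrays: the correlations of their deviations lay between -0.196 and 0.015.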

Additional observations from a re-analysis of the deposited data

Results flagged for a closer look

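The check covered those of the 265 named genes that were listed for this text, in both groups, 326 groups of 5 arrays in all. In 22 of these, the gap of 1 array to the nearest other array took more than 0.71 of the group's range. Chance passes that limit in about 1 in 20 groups, but these genes are not a random set. Among GenX10 livers array 1 stood highest for Pex11a at 10.24, against 9.54 to 9.69 on the other 4, and likewise for Nr1i2 at 9.21, Pex19 at 9.31, Pdk1 at 7.71 and Fth1 at 11.69. Array 1 was lowest for F7 at 9.91 and Sdf2l1 at 8.74. GenX10 array 2 was highest for Fgf21 at 9.88 and Apoc3 at 10.34, and lowest for Cyp3a11 at 11.17 and for albumin (Alb) at 13.32. Fabp3 was lowest on GenX10 array 4 at 10.32, Hspa5 highest on array 3 at 10.55 and Pdp2 lowest on array 5 at 7.25.

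Among control livers Prl2c2, a placental hormone gene, was at 7.97 on array 1, against 4.47 to 5.26 on the other 4. Array 1 was also highest for Cish at 7.94 and Hsd17b13 at 9.47. Control array 4 was highest for Pctp at 8.01, against 6.87 to 7.05, and for Ctss at 7.996. Control array 5 was highest for Fabp1 at 12.04 and Cyp2c37 at 10.96, and lowest for Hsd3b5 at 5.28, against 6.66 to 7.03 on the others. The part of these arrays in the results was not tested.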

How the results depend on the processing

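The precision is limited by 5 arrays a group and, for dim genes, by background. Of 4235 genes called against control, 2478 were called when only genes above background on at least 4 arrays were kept (6829 genes tested), 155 when a 1.5-fold difference was required, 874 without GenX10 arrays 1, 3 and 5, and 2659 without control arrays 1 and 5. The last 2 settings, and that without GenX10 arrays 2 and 4 (4596 calls), were chosen after seeing the data. With 1 array left out the count lay between 2376, without GenX10 array 1, and 4321. Against GenX2 (74 genes) it was 14 with only the arrays of these 2 groups, 148 with all 50 arrays and 4 with the 1.5-fold minimum, and lay between 36, without GenX10 array 1, and 127, without GenX2 array 1, being 46 without GenX2 array 2 and 42 without GenX2 array 5. Against PFOA5 (163 genes) it was 93 with only the arrays of these 2 groups, 282 with all 50 arrays, 326 with array weights and 1 with the 1.5-fold minimum. With 1 array left out it lay between 82, without PFOA5 array 4, and 138, being 85, 97 and 102 without PFOA5 arrays 3, 5 and 2, and 93, 104, 104 and 107 without GenX10 arrays 2, 3, 4 and 5. Apart from the filters and the settings with fewer arrays, the cause was not tested.

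Median centring moved the median of all genes from -0.05 to 0.01 and the split to 3060 higher and 732 lower, and the dim filter gave 1855 higher and 623 lower. A gene could pass that filter through its brighter group alone. Of all genes tested 1299 were dim only in control livers and 137 only in GenX10 livers. The filter could thus let in more rises than falls, and its part in the split was not tested. The replicate block gave 4302, 56 and 131 calls in the 3 comparisons, and since the numbers did not pair the arrays it stands only as a check. Of 216 named calls against control, 175 of which the dim filter tested, none changed sign under any setting run. Many were picked by size or adjusted p in these same data, and the settings share arrays. A change of sign was therefore unlikely from the start, so its absence is not a test of the calls. The block kept 211, the 1.5-fold minimum 73, the fits without 1 array 194 to 209, and those without GenX10 arrays 1, 3 and 5 kept 133.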

Other observations

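Among 33206 transcript clusters without a gene name, 598 (1.8%) were called against control, 290 higher and 308 lower. Of the 598, 194 were above background on at least 5 of the 10 arrays, which 1 group alone could supply. The cluster TC0300000553.mm.1 averaged 9.72 in GenX10 livers and 6.47 in control livers, a difference of 3.24 ± 0.45 (SE, adjusted p = 4.84e-05 in limma). TC0100003406.mm.1 averaged 4.48 in GenX10 livers and 8.43 in control livers, a difference of -3.95 ± 0.23 (adjusted p = 7.39e-12 in limma). The lower mean of each of these clusters lay below background. No gene is named for them here.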
